A study of Haematococcus lacustris with 7 samples.

Results

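The thylakoid and photosynthesis sequences of *Haematococcus pluvialis* (listed at GEO as *Haematococcus lacustris*) were the annotated sequences with at least 1 Gene Ontology (GO) term whose name held thylakoid, photosystem, photosynthe, light harvesting, light-harvesting or photorespiration. The selection found 273 of 6812 annotated sequences (4.01%), which came from 240 of 6164 Trinity components, a component being the group of assembled sequences that Trinity built from connected reads. The study sequenced RNA of this green microalga from 7 libraries, with 1 library per condition. They were an untreated control and cultures given jasmonic acid (JA) or salicylic acid (SA), each at 25 mg/L, for 1, 6 or 24 h. All 7 were aliquots of a single culture in logarithmic growth, and the control received neither hormone. The data used here were the annotation of the joint assembly, which holds 0 columns of values per sample. Depth, expression and the effects of JA and SA are therefore not analysed here, and every number below is a count of annotated sequences with no replicate, no spread and no test. The shares are shares of the whole table and carry no interval. A term was a property assigned by similarity to known proteins, so it gave the kind of protein and not a measured location or activity.

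Thylakoids are the internal membranes of the chloroplast. Antenna proteins there bind chlorophyll and pass light energy to photosystem II, which oxidizes water, and to photosystem I, which reduces ferredoxin. The cytochrome b6f complex links both photosystems, and the proton gradient built along this chain drives ATP synthase. The ATP and NADPH formed are used to fix carbon dioxide by Rubisco in the stroma, and photorespiration recycles the product formed when Rubisco takes up oxygen. Green cells of *H. pluvialis* carry out this process as vegetative cells, and under stress the alga forms red cysts rich in astaxanthin.

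The selection was reached by 35 distinct terms, 17 from the cellular component domain, 16 from biological process and 2 from molecular function. The most frequent was chloroplast thylakoid membrane, listed for 178 of the 273 sequences (65.2%) in 160 components. It was followed by photosynthesis with 92 sequences (33.7%), photosystem II with 49, photosystem I with 33 and photosynthesis, light harvesting with 31. The terms chloroplast thylakoid lumen, light-harvesting complex and photorespiration were listed for 15 sequences each. The spread was therefore wide, with 13 of the 35 terms listed for fewer than 5 sequences and 4 for a single one.

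Terms of photosynthetic electron flow were each listed for few sequences. The function of electron transporter within the cyclic pathway of photosynthesis was listed for 10 sequences. That of electron transporter within the cytochrome b6/f complex, which the term words as a complex of photosystem II, was listed for 6. Photosynthetic electron transport in photosystem II was listed for 9, photosynthetic electron transport chain for 8 and photosynthetic electron transport in photosystem I for 7. Of terms for structure and upkeep, photosystem I reaction center was listed for 10 sequences, photosystem II repair, thylakoid and thylakoid lumen for 7 each, and photosystem II stabilization, thylakoid membrane and thylakoid membrane organization for 6 each. The catabolic process of light-harvesting complex II and the plasma membrane light-harvesting complex closed the terms on at least 5 sequences, with 5 each.

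**Figure D1:**
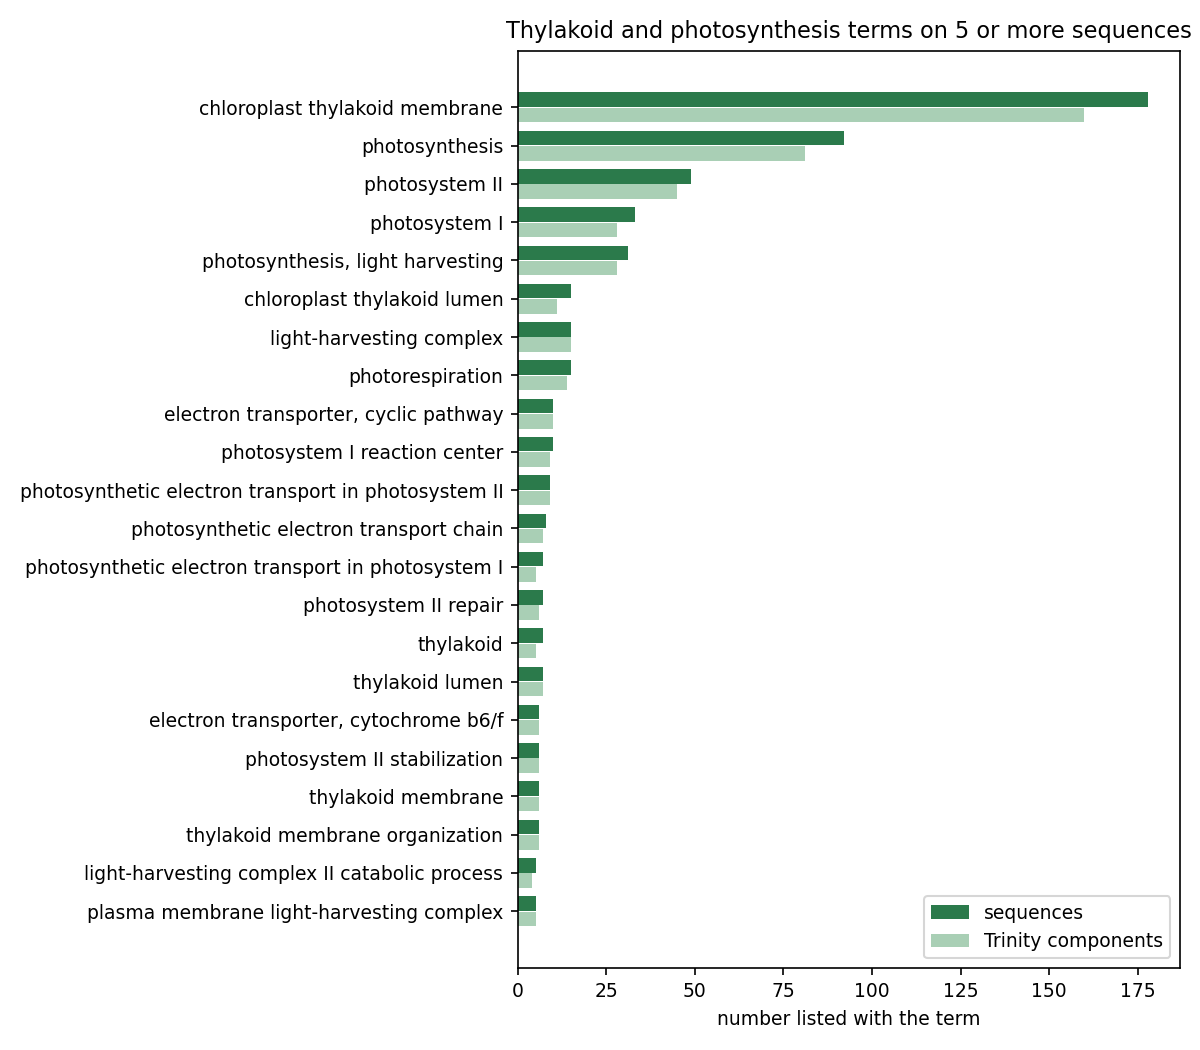
Bars give the number of sequences (dark) and of Trinity components (light) listed with each of the 22 selection terms that were on 5 or more sequences. Chloroplast thylakoid membrane (178 sequences) and photosynthesis (92) stand above the other terms, of which photosystem II (49) is the most frequent.

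Thylakoid terms of any kind were listed for 211 sequences (77.3%) in 187 components. Of these, 189 had a term naming the thylakoid membrane and 22 a lumen term, and 9 sequences had both. The remaining 9 carried only a thylakoid term without membrane or lumen. The 189 include 5 sequences whose only selection term was thylakoid membrane organization, which names a process and not a location. Terms naming either photosystem were listed for 104 sequences (38.1%) in 92 components. Photosystem II was named for 75 sequences and photosystem I for 48, and 19 sequences were annotated to both. These counts take any term holding the name. The 75 thus include photosystem II repair (7 sequences) and the cytochrome b6/f term worded for photosystem II (6). All 19 with both names also had a light harvesting term, so no sequence outside the antenna had terms naming both photosystems. Light harvesting terms were listed for 45 sequences, terms of photosynthetic electron transport for 30 and photorespiration for 15.

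A single selection term was listed for 140 sequences (51.3%), 2 for 38, 3 for 50, 4 for 35 and 5 for 10. The sequences with only 1 such term were mainly of 2 kinds. Chloroplast thylakoid membrane was the lone selection term of 61 sequences, and photosynthesis that of 33, of which 18 were also annotated to chlorophyll biosynthetic process. The word photorespiration alone brought in 14 sequences, thylakoid alone 86 and photosynthe alone 44. The words photosystem, light harvesting and light-harvesting brought in 0 that no other word found. All 10 sequences with 5 selection terms fell in the photosystem II core group described below, among them comp27444_c0_seq1_11, comp47513_c0_seq1_16, comp65564_c2_seq1_39, comp65931_c0_seq1_8 and comp66181_c0_seq1_21. Of these, comp65564_c2_seq1_39 listed protein complex assembly and thylakoid lumen but not integral to membrane, so its place in this group does not make it a core subunit.

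**Figure D2:**
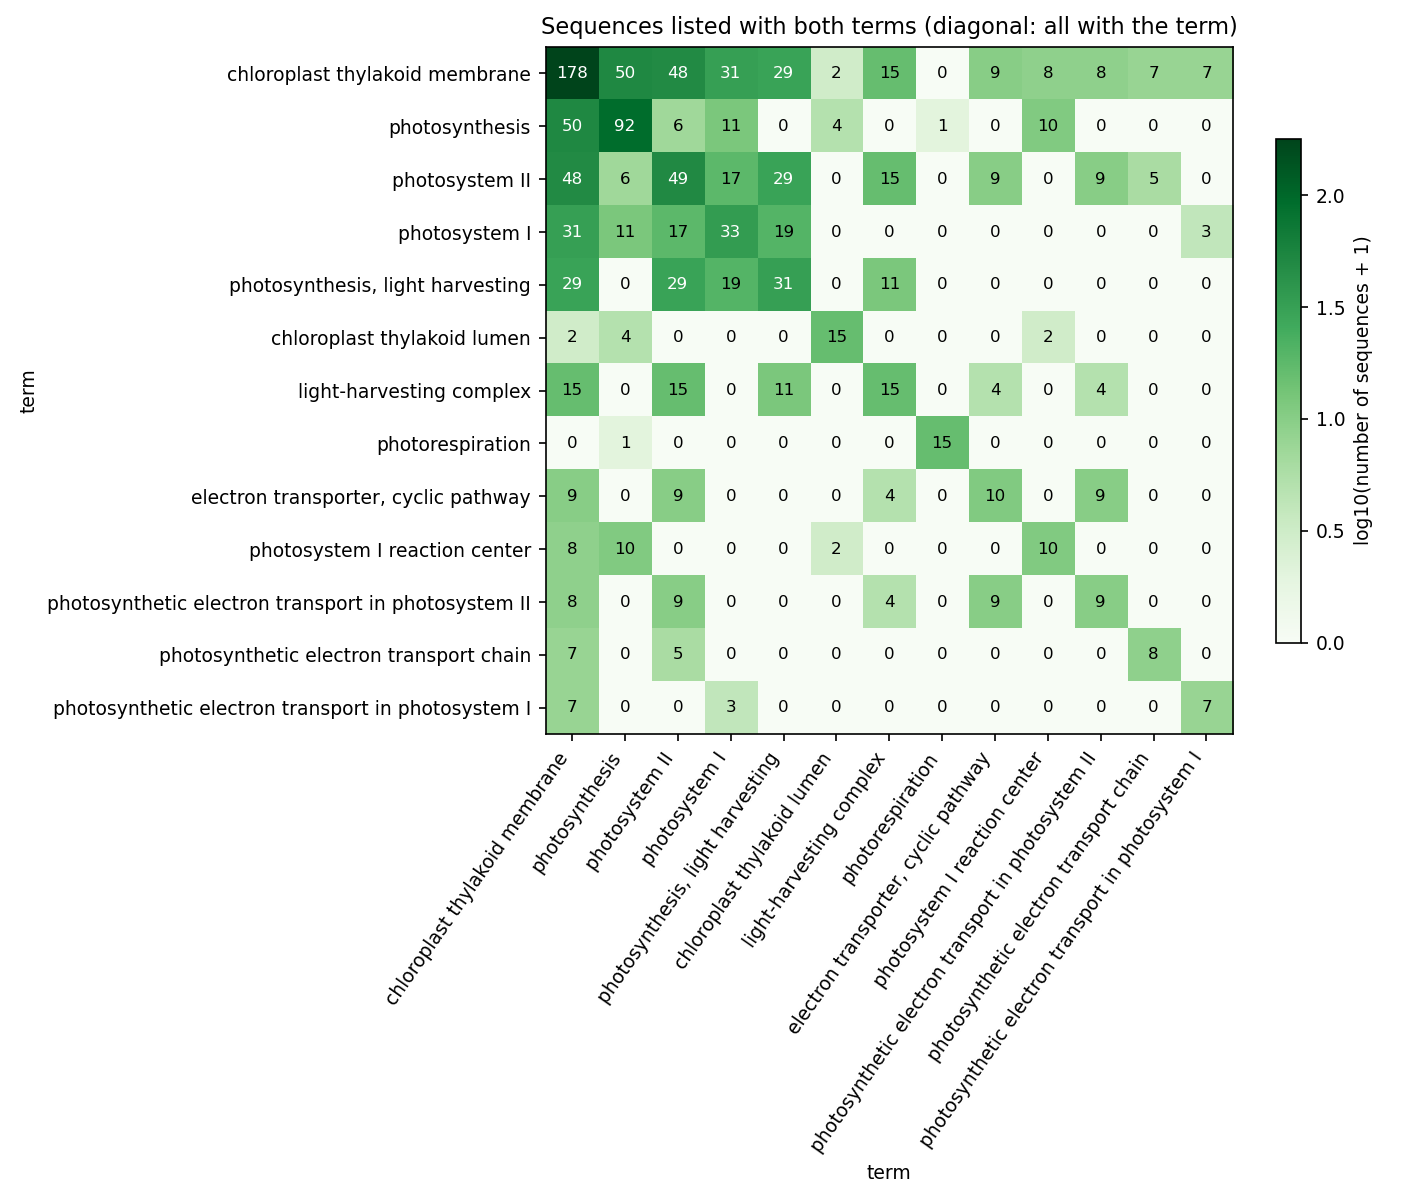
Each cell gives the number of sequences listed with both the row term and the column term, the diagonal gives all sequences with the term, and the shade is the log10 of that number plus 1. Photosynthesis, light harvesting shared 29 sequences with photosystem II and 19 with photosystem I but 0 with photosynthesis, and photorespiration shared only 1 with any other term shown.

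To account for every sequence, the 273 were divided into 11 groups, each sequence going to the first group whose terms it carried. They were antenna (31 sequences), ATP synthase (24), oxygen evolving complex (11), photosystem I (28), photosystem II core (24), electron carriers (23), chlorophyll synthesis (27), photorespiration and Rubisco (18), carbon enzymes (14), proteases, folding and assembly (39) and a remainder (34).

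The 31 antenna sequences, in 28 components, had 6 distinct sets of terms, although the group was among the largest. All 31 listed chlorophyll binding, protein-chromophore linkage, integral to membrane and photosynthesis, light harvesting. These are the features of the chlorophyll a/b-binding proteins, which hold most of the chlorophyll of a green cell. The group fell into 2 main kinds. The first, 14 sequences in 11 components with the same set of terms, listed both photosystem I and photosystem II together with metal ion binding. Its members include comp50179_c0_seq1_2 and all 4 sequences of the component comp62080_c2. The second, 11 sequences in 11 components with a set of their own, listed photosystem II and light-harvesting complex, and neither photosystem I nor metal ion binding. Across the whole group the 19 sequences with metal ion binding were the same 19 that listed a photosystem I term. The exact term light-harvesting complex was joined to a photosystem I term in 0 sequences. The 2 sequences with the separate term for light-harvesting complex II of photosystem II did list photosystem I.

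Terms of light response, photoinhibition or nonphotochemical quenching were listed for 12 selected sequences (4.40%) and for 5 others (0.0765%). Of the 12, 3 were among the 31 antenna sequences, all with responses to blue, red and far red light. Of these 3, comp50158_c0_seq1_10 and comp52611_c0_seq1_7 also listed nonphotochemical quenching, the release of excess light energy as heat, and were the only 2 sequences in the whole table with that term. Plastoglobule, the lipid droplet attached to thylakoids, was listed for 5 antenna sequences.

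Photosystem II oxidizes water, and its sequences differed in the cofactors listed. In the core group of 24 sequences, 9 listed chlorophyll binding, 5 listed iron ion binding and 2 listed heme binding, and 0 listed both chlorophyll and iron. The other 8 listed none of these cofactors, and 7 of them were annotated to photosynthesis with chloroplast thylakoid membrane. The 9 with chlorophyll binding came in 2 kinds. Of them, 5 in 4 components listed photosynthetic electron transport chain, and 4 in 4 components listed light-harvesting complex, cyclic electron transport and electron transport in photosystem II. The 5 with iron ion binding also listed plasma membrane light-harvesting complex, and 4 of the 5 listed response to herbicide. The fifth, comp66181_c0_seq1_21, did not. Several herbicides act by displacing plastoquinone from photosystem II. The 2 with heme binding, comp67008_c0_seq1_2 and comp540737_c0_seq1_7, were annotated to the photosystem II reaction center and to a photosystem II of plasma membrane-derived thylakoids, a term made for bacterial cells.

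The oxygen evolving complex is the manganese and calcium site of water oxidation with the proteins that shield it on the lumen side. It was listed for 11 sequences in 11 components, and 0 sequences outside the selection carried it. All 11 listed photosynthesis, 10 listed chloroplast thylakoid membrane, 10 extrinsic to membrane and 9 calcium ion binding. Photosystem II stabilization was listed for 5 of them. None of the 11 (0) listed the term photosystem II itself, so a count by that term leaves these 11 sequences out.

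Photosystem I uses light to pass electrons through iron-sulfur clusters to ferredoxin, and 28 sequences in 23 components were placed in its group. Chlorophyll binding was listed for 10 in 8 components, together with magnesium ion binding and a 4 iron, 4 sulfur cluster. The same cluster without chlorophyll was listed for 3 sequences in 3 components. The term photosystem I reaction center was listed for another 10, in 9 components, of which 0 listed chlorophyll binding. Photosynthetic electron transport in photosystem I was listed for 7 sequences, namely the 3 with the cluster but no chlorophyll, all 3 of the component comp64529_c1 and comp57067_c0_seq1_6, which also listed responses to high light intensity and water deprivation. The last sequence of the group, comp55669_c0_seq1_13, listed photosystem I without any cofactor. The component comp52626_c2 gave 3 of the 10 sequences with chlorophyll binding, all with 12 identical terms.

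Among the 23 electron carrier sequences, 6 in 6 components listed electron transfer within the cytochrome b6/f complex. A further 2 listed plastoquinol-plastocyanin reductase activity with a 2 iron, 2 sulfur cluster, the features of the Rieske iron-sulfur protein of that complex. Ferredoxin-NADP+ reductase activity, the last step to NADPH, was listed for 6 sequences in 4 components, 3 of them in comp63642_c0. Copper ion binding was listed for 2 sequences, and comp56886_c1_seq8_5 was the one that combined it with electron carrier activity. Heme binding was listed for 2 sequences, comp34453_c0_seq1_8 in the lumen and comp44903_c0_seq5_7 in the thylakoid membrane. NADH dehydrogenase activity was listed for 5 sequences, of which 3 were placed in the plasma membrane and reached the selection only by photosynthesis, light reaction.

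ATP synthase terms were listed for 24 sequences in 20 components. The catalytic core F(1) was listed for 19 of these and the membrane factor F(o) for 5. ATP binding was listed for 14 of the 19 core sequences. For ATP synthesis itself 2 terms were in use, and they divided the group completely. The term plasma membrane ATP synthesis coupled proton transport was listed for 15 sequences and ATP synthesis coupled proton transport for the other 9, although 22 of the 24 were also placed in the chloroplast thylakoid membrane. In the whole table the core F(1) was listed for 42 sequences, so the selected sequences made up 45.2% of them. The components comp54434_c0 and comp62378_c3 each held 3 sequences of this group with 1 set of terms.

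Chlorophyll biosynthetic process was listed for 27 of the selected sequences, in 23 components, and for 18 of the others. The pathway runs from glutamate to protoporphyrin, which heme synthesis shares, and then by the insertion of magnesium to chlorophyll. All 22 sequences with an activity term named for an enzyme of the magnesium branch were in the selection. They listed magnesium chelatase activity (8), geranylgeranyl reductase activity (7), the oxidative cyclase of magnesium-protoporphyrin monomethyl ester (3), protochlorophyllide reductase activity (2), the magnesium protoporphyrin methyltransferase (1) and chlorophyllide a oxygenase activity (1). Another 4, in 3 components, listed oxidoreductase activity on iron-sulfur donors with photosynthesis, dark reaction. That activity term names no step of the pathway, so these 4 were not counted among the 22. The sequence comp1106344_c0_seq1_8 joined the process to carotenoid synthesis and cyanelle. All 17 sequences annotated to an enzyme of the earlier steps, in 16 components, were outside the selection. These included glutamate-1-semialdehyde aminomutase with 5 sequences, porphobilinogen synthase and protoporphyrinogen oxidase with 3 each and glutamyl-tRNA reductase with 2. Among sequences annotated to an enzyme of the pathway, the selection terms thus began at magnesium insertion. These were not always terms of photosynthesis. The chlorophyllide a oxygenase sequence, comp54414_c0_seq1_38, was selected by chloroplast thylakoid membrane only. The component comp62847_c0 gave 4 of the 8 magnesium chelatase sequences, with identical terms.

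Rubisco and photorespiration were annotated to 18 sequences in 16 components. Ribulose-bisphosphate carboxylase activity was listed for 6 sequences in 6 components, and all 6 in the table were in the selection. Of these, 4 had identical terms, comp42982_c0_seq2_3 differed from them by having no magnesium ion binding, and comp60497_c1_seq1_11 was the 1 that listed photosynthesis as well as photorespiration. The other steps lie in several organelles. Glycolate or 2-hydroxy-acid oxidase activity, with peroxisome, was listed for 3 sequences, alanine-glyoxylate transaminase activity for 3, glycine hydroxymethyltransferase activity for 2 and ferredoxin-dependent glutamate synthase activity for 2. Mitochondrion was listed for 7 of the 18 and a peroxisomal term for 5, which included comp58723_c0_seq3_25 and comp58723_c0_seq4_25 with attachment of peroxisome to chloroplast.

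The sequences with the most terms were of this group. A set of 19 terms was listed for comp591479_c0_seq1_3 and comp1473402_c0_seq1_2, the glycine hydroxymethyltransferase pair, and 15 terms for comp65716_c1_seq1_9 and comp812752_c0_seq1_8, the glutamate synthase pair. Between them came comp1385131_c0_seq1_2 with 18, a peptidyl-prolyl isomerase of the thylakoid lumen. These long sets reached beyond the plastid, with apoplast in all 5 and responses to cadmium and cold in the first pair.

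Among the carbon enzymes, pyruvate, phosphate dikinase activity was listed for 9 sequences in 8 components, with photosynthesis as the only selection term. This enzyme regenerates phosphoenolpyruvate and belongs to C4 photosynthesis in maize and related plants. Its sequences came in 2 sets of terms. The first placed 5 sequences in the chloroplast, and the other placed 4 in the chloroplast stroma, the cytosol and the nucleus. Transketolase activity was listed for 4 sequences, all in the chloroplast thylakoid membrane, and phosphoenolpyruvate carboxylase activity for comp991698_c0_seq1_2, which was placed in the cytoplasm.

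Proteases, folding factors and assembly factors formed the largest group, with 39 sequences in 35 components and 24 distinct sets of terms. Metalloendopeptidase activity was listed for 12 sequences in 11 components, all with ATP binding and proteolysis, and catabolism of light-harvesting complex II for 5. Serine-type peptidase terms were listed for 9 sequences, of which 6 in 5 components also listed photosystem II repair, the replacement of damaged core protein in the light. With comp57244_c0_seq1_12, a metalloendopeptidase, these made up the 7 sequences of that term. Peptidyl-prolyl isomerase activity was listed for 8 sequences in 6 components, and all 8 had a lumen term. Of the 22 sequences with a lumen term, the isomerases and the serine peptidases thus made up the larger part. Protein insertion into membrane was listed for 3 sequences and protein import, targeting or transport for 3.

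The remaining 34 sequences, in 29 components, carried 26 distinct sets of terms and had a median of 5 terms. They shared no main function. Among them were 2 with ferrochelatase activity, which inserts iron into protoporphyrin on the way to heme, and 3 with peroxiredoxin activity. These were 0.733% and 1.10% of the selected sequences. Outside the selection, ferrochelatase activity was listed for 2 sequences (0.0306%) and peroxiredoxin activity for 10 (0.153%). The shortest entry of the whole selection was also here, comp52759_c0_seq2_24, with chloroplast thylakoid lumen as its 1 term.

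**Figure D3:**
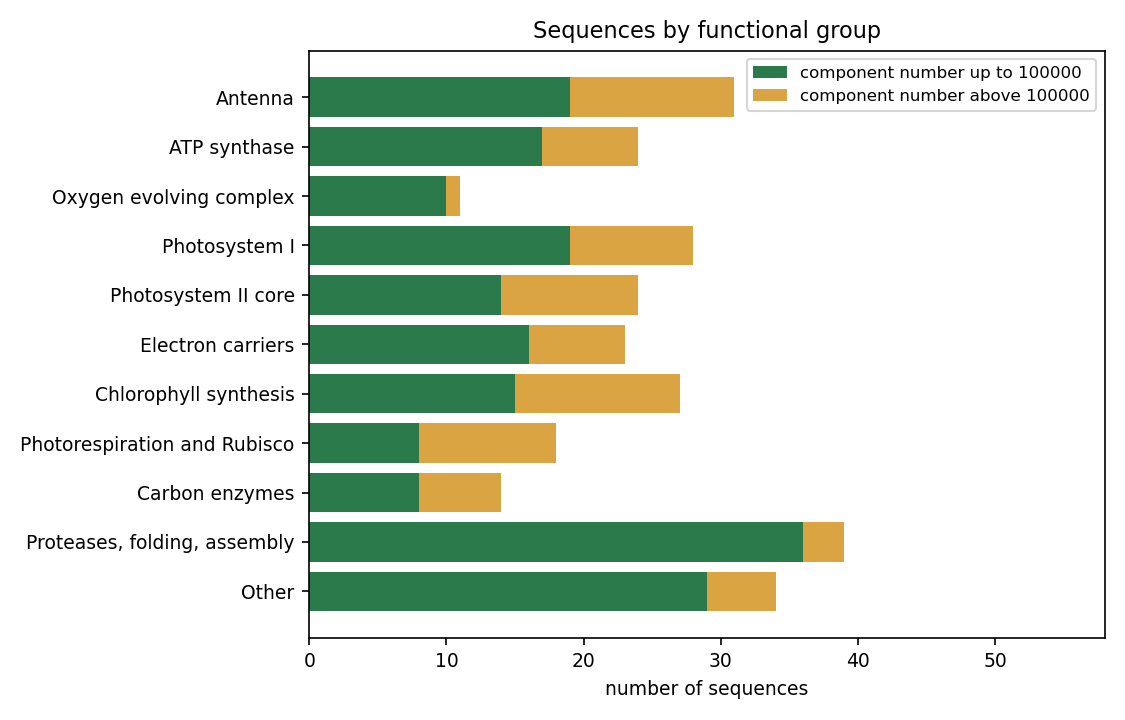
Bars give the number of sequences in each of the 11 functional groups, divided into those with a Trinity component number up to 100000 (green) and above it (ochre). Sequences above 100000 made up 10 of 18 for photorespiration and Rubisco but 3 of 39 for proteases, folding and assembly.

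Trinity numbers its components, and with a division chosen after the numbers were seen, 82 of the 273 sequences (30.0%) lay above 100000, against 3347 of the 6539 other sequences (51.2%). The share differed between the groups. It was 55.6% for photorespiration and Rubisco, 44.4% for chlorophyll synthesis, 42.9% for the carbon enzymes, 41.7% for the photosystem II core and 38.7% for the antenna. It was 9.09% (1 of 11) for the oxygen evolving complex and 7.69% (3 of 39) for proteases, folding and assembly. Within photosystem I, 6 of the 10 sequences with chlorophyll binding lay above 100000, but 2 of the 10 with photosystem I reaction center. Within Rubisco the 4 sequences with identical terms all lay above it. Each identifier ends in a further number, taken to be that of the predicted reading frame. Among the selected sequences its median was 3 above 100000 and 12 up to it. Among the other sequences the median was likewise 3 above and 14 up to it. The part of this number in these shares was not tested.

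Sequences with the same annotation mostly lay in different components. The 273 sequences had 140 distinct sets of terms, of which 85 belonged to a single sequence. Another 41 sets occurred in 2 or more components and covered 154 sequences. Of the 240 components, 219 held 1 selected sequence and 21 held from 2 to 4, or 54 sequences together. In 20 of these 21 the sequences had identical terms. The exception was comp58316_c4, whose 4 selected sequences belonged to 3 groups. Its members comp58316_c4_seq4_11 and comp58316_c4_seq9_11 carried photosystem II and chlorophyll binding, comp58316_c4_seq2_12 the ATP synthase core and comp58316_c4_seq19_4 electron transfer in the cytochrome b6/f complex. Its other 3 annotated sequences listed RNA-directed DNA polymerase activity, endonuclease activity and chloroplast. In green algae such enzymes are known from introns of the chloroplast genome. Of the 240 components, 2 also held annotated sequences outside the selection. The second was comp56886_c1, where these listed microtubule-severing ATPase activity. The components with 3 or more selected sequences also included comp62221_c0, whose 3 sequences listed nitrile hydratase activity with plastid and photosynthesis.

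Terms outside the selection words were 221 in number, and 75 of them were listed for 1 selected sequence only. The most frequent was integral to membrane, listed for 112 sequences (41.0%), compared with 8.61% of the other annotated sequences. It was followed by metal ion binding (22.3% and 10.5%), transport (19.8% and 3.72%) and ATP binding, which was less frequent in the selection (19.0%) than outside it (28.5%). Chlorophyll binding was listed for 50 selected sequences and 0 others. Protein-chromophore linkage was listed for the same number, 50, and for 9 others, of which 6 had DNA repair or photolyase terms and 4 photoreceptor activity, with 1 sequence in both sets. Oxidation reduction was listed for 40 selected sequences (14.7%, against 9.37% of the others) and protein binding for 34 (12.5% and 15.7%). Electron transport chain was listed for 25 (9.16% and 1.99%) and hydrogen ion transporting ATP synthase activity for 23 (8.42% and 0.642%). Proteolysis was listed for 21 (7.69% and 2.4%) and nucleoside-triphosphatase activity for 20 (7.33% and 1.74%). These shares were not tested, since sequences of one assembly are not replicates.

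**Figure D4:**
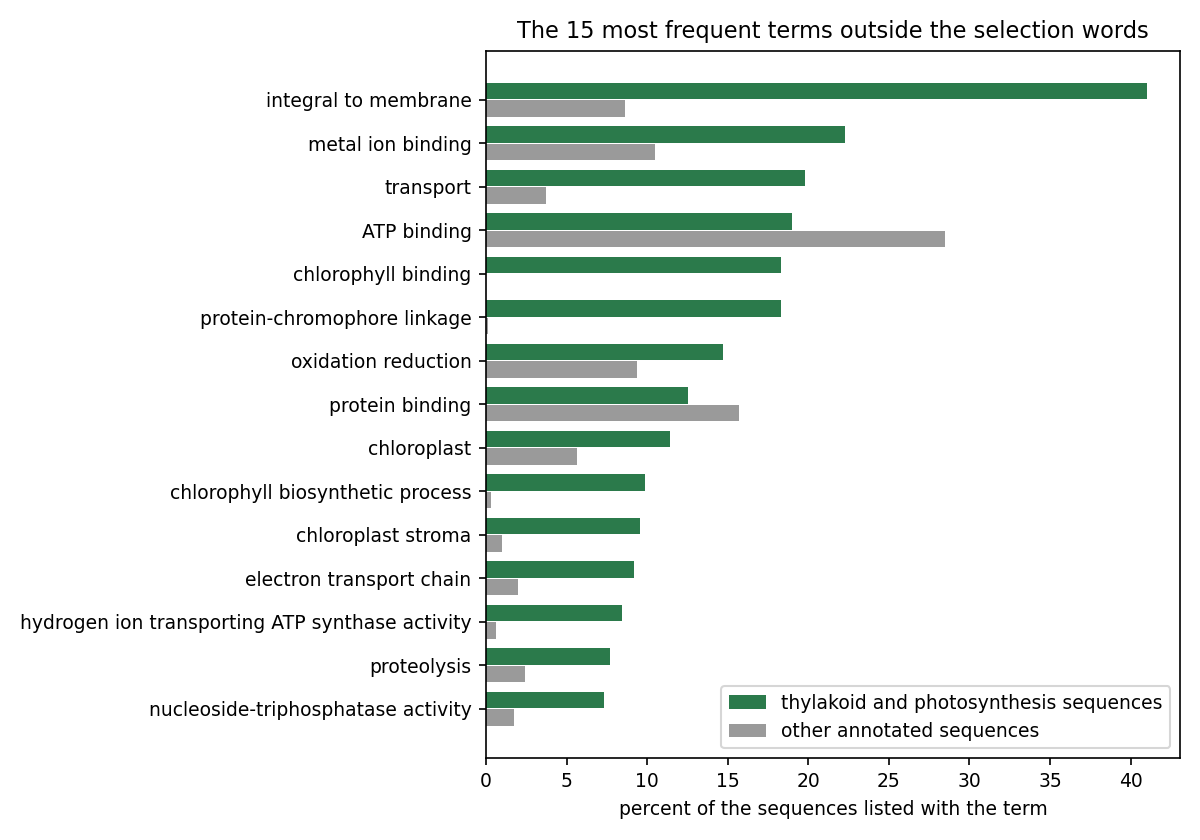
For the 15 most frequent terms outside the selection words, bars give the percent of the 273 thylakoid and photosynthesis sequences (green) and of the 6539 other sequences (grey) listed with the term. Integral to membrane stands at 41.0% and 8.61%, and ATP binding and protein binding are the 2 terms that were more frequent among the other sequences.

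A term named for chloroplast or plastid was listed for 249 of the 273 sequences (91.2%), a count largely set by the selection, since chloroplast thylakoid membrane and lumen are among its terms. Plastid terms that the selection did not use, such as chloroplast (31 sequences), chloroplast stroma (26) and chloroplast envelope (18), were listed for 83 sequences (30.4%), against 490 others (7.49%). A mitochondrial term was listed for 16 sequences (5.86%, against 11.6% of the others) and nucleus for 13 (4.76%, against 13.8%). Terms of translation and the ribosome were listed for 5 selected sequences (1.83%) and 795 others (12.2%). Of the 24 sequences without a term named for plastid or chloroplast, 13 lay above component number 100000. The share above it was 30.0% for all selected sequences and 51.2% for the other sequences. The median number of terms was 7 per selected sequence (quartiles 5 and 8) and 5 per other sequence (quartiles 4 and 7).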

How the data were processed

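Paired-end reads of the 7 libraries were filtered by quality and assembled with Trinity, and reading frames were predicted with GetORF. GO terms followed from Blastp searches by means of GoPipe. The authors deposited 1 annotation table without a header, whose 4 columns of text hold the sequence identifier, the GO identifier, the term name and the domain, in 39529 lines. None of the columns (0) holds values per sample, so depth is not analysed here.

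Sequences were counted by identifier, and a component was taken as the part of the identifier before seq, such as comp58316_c4. A term counted only where the table lists it. The groups were formed by patterns over term names, in a fixed order. Terms on 5 or more sequences, the 15 most frequent terms outside the selection words, components with 3 or more selected sequences and sequences with the most terms were named by rule. The other sequences, the groups and the division at 100000 were chosen after their values had been seen. The selection and the lists were chosen with earlier results of these data known. No test was made, because sequences of one assembly are not replicates. The annotation holds no values per sample, and conditions had 1 library each. A reference table of 30548 *H. lacustris* genes matched 0 of the identifiers, so no protein or promoter sequence could be assigned. Counting used Python 3.11.15 with SciPy 1.17.1 and NumPy 2.4.6, and plots used Matplotlib 3.10.9.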

Additional observations from a re-analysis of the deposited data

How the results depend on the processing

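Of 15 values under alternatives from the plan, 14 stayed within 1.5 times the reported value. The number of selected sequences moved from 273 to 173 without the words thylakoid and photorespiration, because 86 sequences are reached by thylakoid alone and 14 by photorespiration alone. It was 240 by component, 211 by the word thylakoid only and 302 with chlorophyll added. The share with a plastid term outside the selection words was between 27.8% and 30.4%. Of 6 values under alternatives chosen after seeing the data, 1 moved: the sequences without a plastid-named term fell from 24 to 15 when thylakoid and photosystem counted as plastid words. The number above component number 100000 was 82 with the boundary at 200000 and 83 at 80000. Alternatives for values per sample could not be run, as the annotation is text. No paired analysis was possible because the result comes from no test.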

Other observations

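Some selected sequences also carried terms named for structures of other organisms. Thylakoid membrane organization was the only selection term of 4 sequences in 4 components with cycloartenol synthase activity, the first cyclic step of plant sterol synthesis. The same 4 sequences listed pollen development and vacuole and had no plastid term. Cyanelle, the plastid of glaucophyte algae, was listed for 2 selected sequences and 4 others. Photosynthetic terms named for the plasma membrane, where bacteria hold their light-harvesting complexes, were listed for 7 selected sequences, and the selection words themselves take in every such sequence. Terms with the words pollen, seed, flower, leaf, root or plant-type were listed for 12 selected sequences (4.40%) and 114 others (1.74%).

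Some selected sequences listed activities that act on reactive oxygen, iron or carotenoids. Peroxiredoxin activity was listed for 3 selected sequences in 2 components (1.10%, against 0.153% of the others). Superoxide dismutase activity was listed for comp830951_c0_seq1_8 (0.366%, against 0.245%). Iron oxidation, as ferroxidase activity with photosynthesis, was listed for comp58643_c0_seq1_12, and ferroxidase activity also for 1 other sequence (0.366%, against 0.0153%). Zeaxanthin epoxidase activity, which acts in the xanthophyll cycle, was listed for comp1825390_c0_seq1_1 and for 1 sequence outside the selection (0.366%, against 0.0153%). A term naming carotene, carotenoid, zeaxanthin or xanthophyll was listed for 3 selected sequences (1.10%) and 20 others (0.306%). Photoinhibition was listed for 2 selected sequences (0.733%) and 1 other (0.0153%). The 2 selected ones were both in comp60210_c0 and both listed unsaturated fatty acid biosynthetic process.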
